A study of Mus musculus with 12 samples.

Results

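The 10 genes described here are the core of the mammalian circadian clock and its best known direct output: the activators Arntl (which encodes BMAL1), Clock and Npas2, the repressors Per1, Per2, Per3, Cry1 and Cry2, the nuclear receptor gene Nr1d1 (REV-ERB alpha) and the output transcription factor gene Dbp. They were chosen by symbol, as the probes that the array's platform annotation assigns to 1 of these genes. There were 18 such probes, all 18 passed the filter on missing values, and all 10 of 10 genes were measured, among 17837 named genes and 25821 features tested in all. RNA was from cardiac ventricle muscle of 6 mice that lack AMPK alpha2 (AMPK alpha2 -/-, here KO), a catalytic subunit of an energy-sensing kinase, and 6 wild-type mice (AMPK alpha2 +/+, here WT). All 12 animals were of the strain C57B6 and 7 months old, were fed standard chow and were anaesthetised with pentobarbital before the heart was removed. Each animal had its own 2-colour Agilent array, on which heart RNA was set against a commercial reference RNA from 11 mouse cell lines. Heart RNA carried Cy3 in replicates 1 to 3 and Cy5 in replicates 4 to 6 of each genotype. The labels give no hour of sampling, no sex and no driver of the deletion, and the sources used here do not give the light schedule.

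In the mammalian clock, BMAL1 pairs with CLOCK or NPAS2 and binds E-box sequences in the genes of the PER and CRY proteins, of REV-ERB alpha and of DBP. PER and CRY proteins then return to the nucleus and repress that pair, while REV-ERB alpha represses Arntl through elements that it shares with the ROR receptors, so Arntl and its targets cycle in opposite phase. In mouse heart Arntl, Clock and Npas2 RNA is known to be high near the start of the light phase (the morning arm here), and Nr1d1, Dbp, Per1, Per2 and Per3 RNA later in the day (the evening arm). Cry1 and Cry2 were placed in neither arm. AMPK, the kinase, is known from mouse cells and liver to phosphorylate CRY1 and so to speed its breakdown, a step on the protein that an RNA array does not measure. The 2 questions were whether clock RNA differed between KO and WT hearts, and whether hearts differed from each other along the morning and evening arms.

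The loop is known to run through short promoter sequences, and 4 promoters in which such sequences were found are shown to place the genes in it: the Arntl promoter with an element for REV-ERB alpha and ROR receptors, the Per1 and Cry1 promoters with E-boxes, and the Per3 promoter with sites of the DBP type. RefSeq promoter windows of build GRCm38.p6, 250 bases before to 50 after each annotated start, were at hand for 9 of the 10 genes, 13 windows in all; Per2 is named only. Both strands were searched for the E-box CACGTG, its variant CACGTT, the D-box TTANGTAA, the ROR elements TAGGTCA and TGGGTCA, and the cAMP element TGACGTCA, none of which overlap in the windows shown. The windows are chr7:113207261-113207560 (plus strand) for Arntl, chr11:69098699-69098998 (plus strand) for Per1, chr10:85185005-85185304 (minus strand) for Cry1 and chr4:151044616-151044915 (minus strand) for Per3. Arntl and Per1 each have another annotated start, whose window held none of the motifs and is not shown; the 2 Arntl windows overlap. Each sequence reads 5′ to 3′ along the gene, with motif matches in capitals.
Arntl: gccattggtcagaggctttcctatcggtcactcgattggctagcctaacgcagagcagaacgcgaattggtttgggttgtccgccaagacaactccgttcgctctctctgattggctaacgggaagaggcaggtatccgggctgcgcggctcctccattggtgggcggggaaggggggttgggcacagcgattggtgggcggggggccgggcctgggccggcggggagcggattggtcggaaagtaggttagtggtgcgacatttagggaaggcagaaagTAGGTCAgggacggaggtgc
Per1: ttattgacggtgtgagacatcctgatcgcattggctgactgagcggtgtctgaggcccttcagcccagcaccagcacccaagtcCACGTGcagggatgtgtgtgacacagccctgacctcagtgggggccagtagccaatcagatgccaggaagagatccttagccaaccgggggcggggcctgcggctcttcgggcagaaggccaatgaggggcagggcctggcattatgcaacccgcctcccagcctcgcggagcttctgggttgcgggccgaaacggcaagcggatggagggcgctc
Cry1: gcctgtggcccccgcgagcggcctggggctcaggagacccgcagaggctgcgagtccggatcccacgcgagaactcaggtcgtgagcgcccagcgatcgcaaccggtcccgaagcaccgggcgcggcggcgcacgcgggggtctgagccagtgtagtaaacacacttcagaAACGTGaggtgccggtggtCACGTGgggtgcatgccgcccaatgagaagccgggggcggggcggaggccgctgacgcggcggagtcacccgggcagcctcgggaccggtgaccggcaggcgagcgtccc
Per3: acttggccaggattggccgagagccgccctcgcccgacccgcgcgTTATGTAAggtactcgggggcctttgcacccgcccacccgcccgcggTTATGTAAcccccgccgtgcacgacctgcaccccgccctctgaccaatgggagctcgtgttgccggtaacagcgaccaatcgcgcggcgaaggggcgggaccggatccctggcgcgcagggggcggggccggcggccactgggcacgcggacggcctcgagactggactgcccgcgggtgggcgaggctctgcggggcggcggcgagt
The Arntl window held TAGGTCA at position 30 from the start, a match found in 2.61% of 32851 mouse promoter windows. Per1 and Cry1 were the 2 members with CACGTG, which 7.15% of windows held: it began at position -166 from the Per1 start shown and at -60 from the Cry1 start. The Cry1 window also held the variant, read as AACGTG on this strand, at position -79. Per3 had D-box matches, TTATGTAA, at positions -205 and -158, and 2.32% of windows held any D-box match. Cry2 and Nr1d1 each had 1 match to the E-box variant, which 4.68% of windows held. The windows of Clock, Npas2 and Dbp held none of the 6 motifs. A match describes the letters in a window and not a bound site, and a window without one describes that window alone.

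Values are signed log ratios of heart over reference RNA, read here as log2; the deposited table does not state the base. Heart muscle markers set the direction: all 6 of 6 ventricular cardiomyocyte markers, the contractile and calcium-handling genes Myh6, Tnnt2, Actc1, Ryr2, Pln and Myl2, were above 0 on every array that measured them. Of the cycling-cell markers 3 of 4 were measured, with a median of -2.24, and all 4 of 4 endothelial markers were above 0 on every array that measured them. Scanner intensities were not used here, so signal over background is unknown, and a ratio near 0 says only that heart and reference RNA gave like signals. The number of arrays limits the precision. Empty cells ranged from 0.306% to 41.7% of probes per array, with the largest shares in KO 4 and WT 3. In whole ventricle, a change in the share of cells of one type and a change in RNA per cell cannot be told apart.

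Some arrays carried markers of other tissues. The 4 atrial markers, all 4 of them measured, had a mean between 1.21 and 5.53 over the 6 KO arrays and between 1.42 and 5.55 over the 6 WT arrays. The highest were KO 1 at 5.53 and WT 2 at 5.55, and WT 6 followed at 4.05, KO 6 at 3.38 and KO 5 at 3.20, while the other 7 arrays were at 2.14 or lower. Myl7, an atrial myosin light chain, read 7.09 in KO 1 and 7.19 in WT 2, and Myl4, another, read 5.56 in KO 1 and 5.64 in WT 2. Sln was also highest there, at 4.38 in KO 1 and 3.79 in WT 2. Nppa was highest in neither. It read 5.08 in KO 1 and 5.58 in WT 2, against 5.42 in KO 2 and 5.63 in WT 6. Myl7 had no value in KO 4 and WT 6, so the atrial means of these arrays rest on the other markers. WT 2 also had the fat genes Adipoq at 3.93 and Ucp1 at 3.81, and KO 6 had the lung gene Sftpc at 6.13 and the liver gene Alb at 5.90. The other lung gene listed, Sftpb, read 0.395 in KO 6, and Sftpc also read 2.19 in WT 3 and 1.29 in KO 3. KO 1 and WT 2 were also the hearts with the lowest Arntl; the part of atrial tissue in any clock value was not tested, and main correlations over hearts are given with and without them. Prkaa2, the targeted gene, averaged 3.89 ± 0.26 in KO (SD, n = 5) and 4.10 ± 0.09 in WT (SD, n = 6), and its KO minus WT value of -0.18 ± 0.10 (SE) did not pass the test, with a limma adjusted p of 0.937. No source used here says where its probe lies relative to the deleted part, so it does not check the labels.

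Arntl was the activator that varied most. Its single probe read a lowest value of -1.08, a median of -0.47 and a highest value of 0.26 over the 6 KO hearts, against -0.88, -0.32 and 0.19 over the 6 WT hearts. The ranges overlapped almost entirely: KO 1 and WT 2 were lowest, and KO 2 and WT 3 were highest in their groups. Clock, the partner of BMAL1, had 4 probes and hardly moved. Its gene value ran from -0.04 to 0.18 in KO hearts, with a median of 0.05, and from -0.03 to 0.26 in WT hearts, with a median of 0.05. The 4 Clock probes did not track each other over animals, with dye-centred correlations between pairs of -0.605 to 0.448, and averaging such probes narrows a range. Npas2, which can replace CLOCK, was measured in 4 KO hearts, at -0.05, 0.13, 0.33 and -0.13, and in 5 WT hearts, at -0.46, -0.30, -0.02, 0.03 and 0.11. The KO values 0.13 and 0.33 lay above all WT values, while -0.05 and -0.13 lay below the WT median of -0.02, so the groups overlapped.

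Among the repressors, the Per genes differed more from heart to heart than between genotypes. Per1, whose transcription also responds directly to glucocorticoids and cAMP, read -0.05 at the lowest, 0.60 at the median and 1.38 at the highest in KO hearts, against 0.23, 0.53 and 1.16 in WT hearts. Before centring on dye, the highest Per1 in each group was in the hearts with the lowest Arntl, KO 1 and WT 2. With values centred within dye orientation, KO 1 stayed highest in KO at 0.63. WT 5 then read 0.44, above WT 2 at 0.40. Per2 was joined from 2 probes by a fit of probe and array terms. It read -0.27, 0.39 and 0.87 in KO hearts and 0.02, 0.41 and 0.64 in WT hearts. KO 1 again had the highest value of its group and KO 2, the KO heart with the highest Arntl, the lowest. Per3, which is not needed for rhythms in mice, read -0.43, -0.35 and 0.32 in KO hearts and -0.39, 0.08 and 0.26 in WT hearts. All 3 KO hearts of the Cy3 orientation were below 0 for Per3, as was 1 of the 3 WT hearts of that orientation.

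The Cry genes encode the strongest repressors of the loop. Cry1, a mean of 2 probes, was measured in 5 KO hearts, with -0.53 at the lowest, -0.16 at the median and 0.23 at the highest, and in 6 WT hearts, with -0.20, -0.05 and 0.21. The KO values spread on both sides of the WT range. Cry2 was joined from 2 probes by a fit of probe and array terms. It read 0.20, 0.59 and 0.68 in KO hearts, against -0.06, 0.28 and 0.76 in WT hearts. The KO hearts other than KO 3 lay between 0.54 and 0.68, above all WT hearts but WT 2, so the groups overlapped. The 2 Cry2 probes differed: on the first the KO mean was 0.23 and the WT mean -0.25, and on the second the KO mean was 0.85 and the WT mean 0.81.

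Nr1d1, the repressor of Arntl, read 0.14 at the lowest, 0.32 at the median and 0.50 at the highest in KO hearts, against 0.06, 0.42 and 0.77 in WT hearts. Its 3 probes disagreed, with correlations between pairs of -0.119, 0.171 and 0.561 over animals, and 2 of them leaned opposite ways with the dye: the first averaged 0.76 in Cy3 and 1.37 in Cy5 hearts, the third 0.37 in Cy3 and -0.14 in Cy5 hearts. In the RefSeq annotation Nr1d1 also overlaps the end of Thra, the thyroid hormone receptor alpha gene, whose KO minus WT difference was 0.08 ± 0.10 (SE). Dbp, the D-box factor, read 0.95, 1.19 and 1.56 in KO hearts and 0.95, 1.26 and 1.99 in WT hearts. It was above 0 in all 12 hearts, and WT 2 had the highest value.

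**Figure D1:**
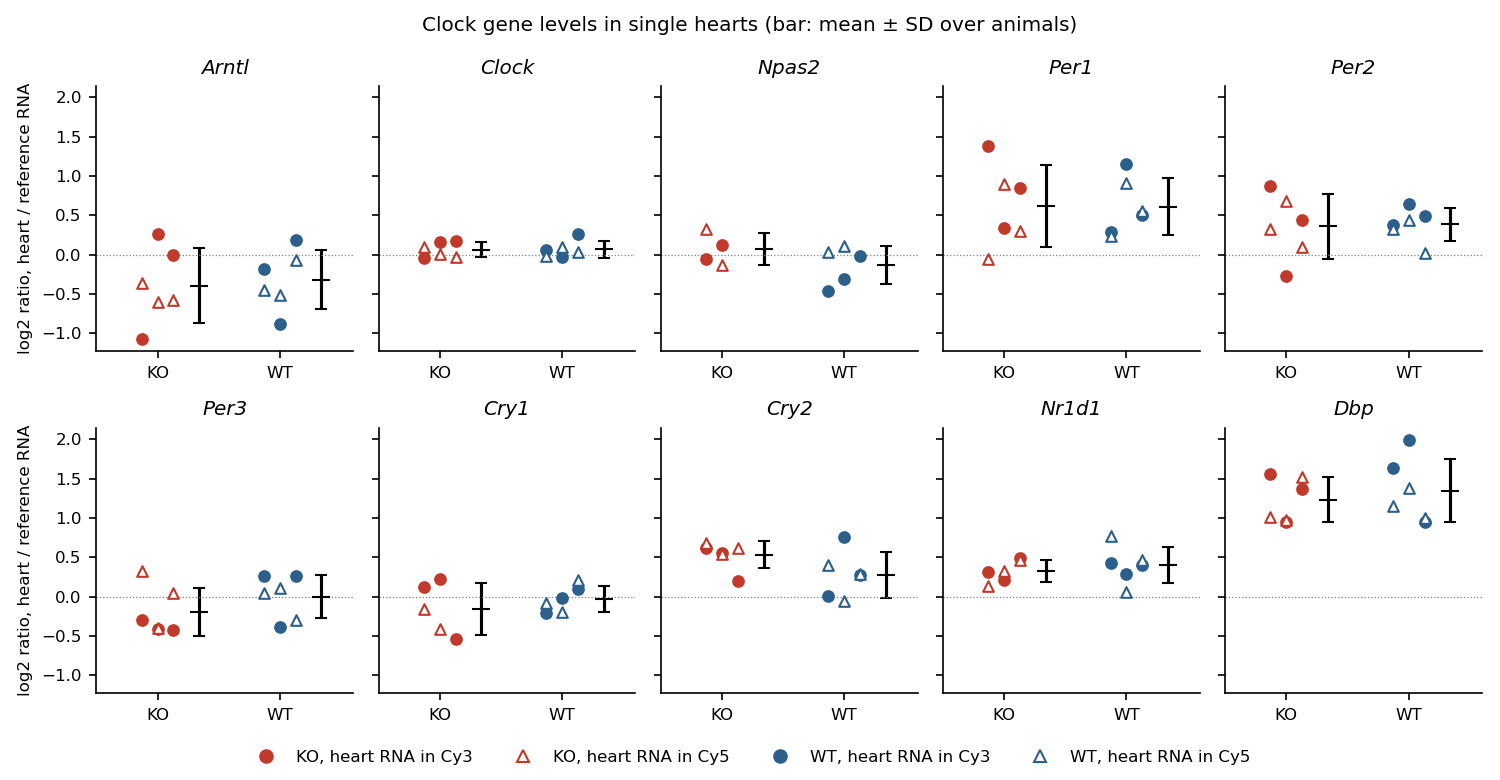
Level of each clock gene in single hearts, as the log2 ratio of heart over reference RNA on the vertical axis, for KO (left in each panel) and WT hearts; filled circles are hearts labelled with Cy3, open triangles hearts labelled with Cy5, and the black bar is the mean ± SD over animals. The KO and WT values of all 10 genes overlap, and Arntl, Per1 and Dbp spread farther over animals than Clock.

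No clock gene differed between KO and WT hearts by the test. In a limma fit over all features with genotype and dye orientation as terms, 0 of the 10 genes passed an adjusted p of 0.05 and 0 passed it before adjustment; of all features, 0.00387% passed the adjusted threshold, 1 feature in all, and 5.33% passed before adjustment. Of the 10 differences 3 were above and 7 below 0, with a median of -0.05 beside -0.0009 over all features, and their median absolute size was 0.097 beside 0.093 over all features. Adjusted p-values ran from 0.935 to 0.997. The 1 feature called was Hyi, a metabolic enzyme gene on the chromosome of Prkaa2, higher in KO by 1.76 ± 0.12 (SE) with a limma adjusted p of 3.92e-05.

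The intervals show what size of difference these 12 hearts leave room for. Clock had the narrowest, a KO minus WT difference of -0.01 ± 0.08 (SE) with a 95% interval of -0.18 to 0.17. Arntl and Per1 had the widest: Arntl differed by -0.07 ± 0.22 with an interval of -0.55 to 0.40, and Per1 by 0.01 ± 0.22 with an interval of -0.47 to 0.49. Cry2 ranked first of the 10 by p, with 0.26 ± 0.14, an interval of -0.04 to 0.55 and a limma adjusted p of 0.935. Per3 differed by -0.19 ± 0.16, with an interval of -0.53 to 0.15, and Npas2, fitted without the 3 hearts that had no value, by 0.18 ± 0.14, with an interval of -0.13 to 0.49. Cry1, whose protein AMPK acts on, differed by -0.13 ± 0.15, with an interval of -0.45 to 0.19; KO 4 had no value for it and was not in the fit. Per2 differed by -0.03 ± 0.17, Nr1d1 by -0.08 ± 0.12 and Dbp by -0.12 ± 0.18, and the intervals of all 3 held 0. A p that missed the threshold does not show that the genotypes were alike.

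The difference was also compared between dye orientations. The interaction of genotype and dye had adjusted p-values of 0.935 to 0.995 over the 10 genes, and 0% of all features passed. Per3 had the interaction of smallest p, with a KO minus WT difference of -0.42 in Cy3 and 0.04 in Cy5 hearts. Cry2 differed by 0.11 in Cy3 and 0.40 in Cy5 hearts, and Per1 by 0.21 in Cy3 and -0.19 in Cy5 hearts.

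**Figure D2:**
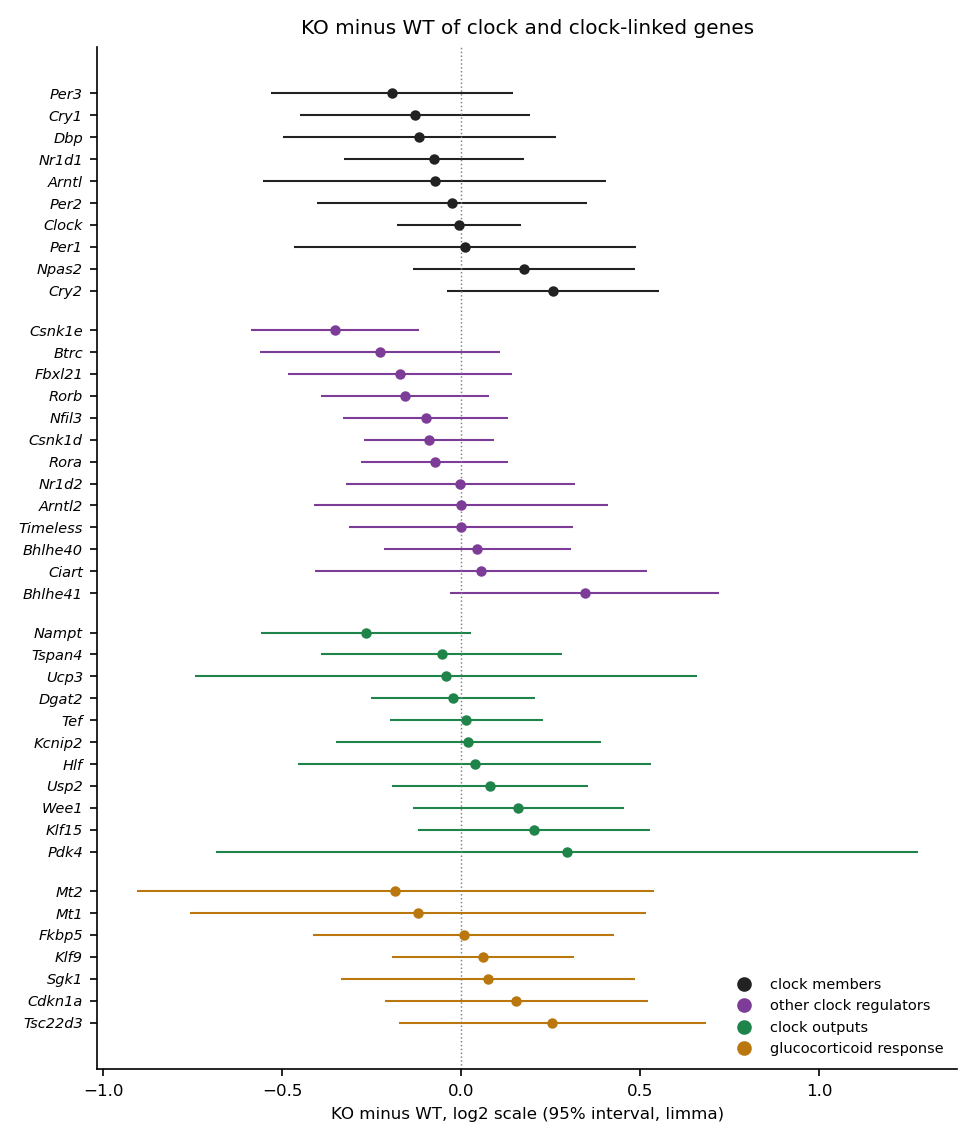
KO minus WT difference on the log2 scale (points) with its 95% interval from limma (lines), for the 10 clock genes and 3 lists of related genes; Per1, also a glucocorticoid response gene, is drawn once. The intervals of all 10 clock genes cross 0, and the interval of Csnk1e alone does not.

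Clock genes differed in how far they varied from heart to heart within a genotype. The residual SD of Arntl, after genotype and dye were fitted, was 0.443, which ranked at the 95.4th percentile of the 25821 features, and that of Per1 was also 0.443. Dbp, at 0.344, and Per2, at 0.339, ranked at the 86.1st and 85.2nd percentiles. Per3 had 0.298, Cry1 0.261 and Cry2 0.253, above the median feature's 0.219, while Npas2 had 0.210, Nr1d1 0.202 and Clock 0.0977, the last at the 4.93rd percentile. The KO minus WT difference was smaller than this SD for all members but Cry2, where 0.26 stood against 0.25. Genes averaged over several probes, as Clock and Nr1d1 were, have a lower SD through that averaging.

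Along the 2 arms, hearts with less Arntl had more Per1, Per2 and Dbp, but no pair passed the adjusted test. Values were centred within each dye orientation, and p-values came from permutation of animals within orientation, two-sided, with Benjamini-Hochberg adjustment over the 10 pairs that could be tested (Arntl or Clock against 5 evening genes). The 5 pairs of Npas2, known in 9 hearts, were not tested. Of the 10 pairs 7 had r below 0, 0 passed after adjustment and 4 had an unadjusted p under 0.05. The share of all gene pairs with r below 0 was not counted.

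Arntl against Dbp had Pearson r = -0.742 (permutation p = 0.0273, adjusted p = 0.0865) and Spearman rho = -0.643 (permutation p = 0.0504, adjusted p = 0.168). Arntl against Per2 had r = -0.721 (permutation p = 0.0111, adjusted p = 0.0865) and rho = -0.685 (permutation p = 0.0216, adjusted p = 0.168). Arntl against Per1 had r = -0.666 (permutation p = 0.0346, adjusted p = 0.0865) and rho = -0.650 (permutation p = 0.0340, adjusted p = 0.168). Clock against Dbp had r = -0.723 (permutation p = 0.0326, adjusted p = 0.0865) and rho = -0.622 (permutation p = 0.0672, adjusted p = 0.168). The other 6 pairs had r between -0.430, for Clock against Per1, and 0.332, for Clock against Per3, with adjusted p-values of 0.429 to 0.650. Nr1d1 and Per3, both evening genes, followed Arntl least, at r = 0.113 and r = 0.189.

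These relations leaned on KO 1 and WT 2 to different degrees. Without these 2 hearts, the 2 lowest in Arntl and highest in atrial markers, Arntl against Per1 had r = -0.158 (exact permutation p = 0.693), Arntl against Per2 r = -0.571 (exact permutation p = 0.109), and Arntl against Dbp r = -0.719 (exact permutation p = 0.0363, adjusted p = 0.363). Clock against Dbp was then r = -0.555 (exact permutation p = 0.156). On the dye-centred scale KO 1 and WT 2 are also the 2 hearts farthest from the median of Arntl. Without KO 1 and KO 2, the 2 farthest by the level before centring, the values were r = -0.447 for Per1 (exact permutation p = 0.236), -0.492 for Per2 (exact permutation p = 0.0644) and -0.814 for Dbp (exact permutation p = 0.0235, adjusted p = 0.215). The r of Arntl with Per1 thus rested on the hearts of extreme Arntl. That with Dbp moved by less than 0.1 in these 2 settings but farther in others. Arntl against Dbp had r = -0.850 without KO 1 alone and -0.642 without WT 2 alone. After quantile normalization it had r = -0.557 (permutation p = 0.178).

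Within one dye orientation, of 6 hearts each, the sign of these 3 pairs was the same. In Cy3 hearts, which include KO 1, KO 2 and WT 2, r with Arntl was -0.862 for Per1, -0.765 for Per2 and -0.804 for Dbp (exact permutation p = 0.0319, 0.0444 and 0.0625). In Cy5 hearts it was -0.226, -0.620 and -0.494 (exact permutation p = 0.71, 0.203 and 0.324). Within genotypes it was -0.789, -0.795 and -0.651 over 6 KO hearts (exact permutation p = 0.0833, 0.250 and 0.250), and -0.640, -0.669 and -0.930 over 6 WT hearts (exact permutation p = 0.306, 0.139 and 0.0833). Shuffling the 6 hearts of 1 genotype within orientation allows 36 orders, and shuffling the 6 hearts of 1 orientation allows 720.

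**Figure D3:**
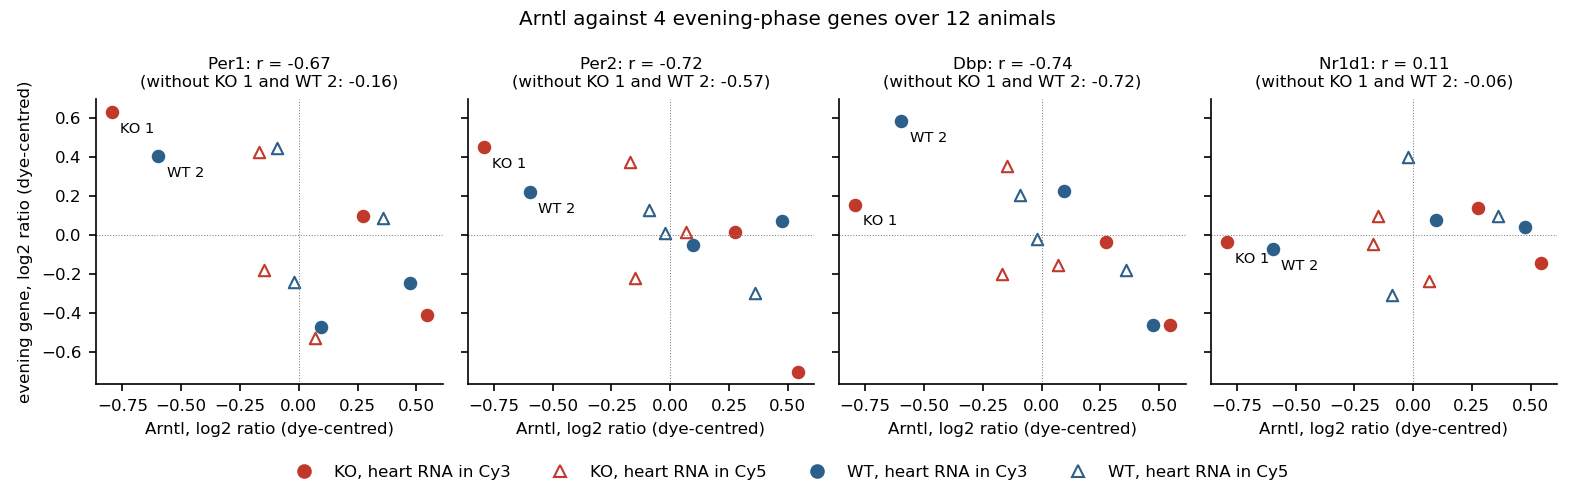
Arntl (horizontal axis) against Per1, Per2, Dbp and Nr1d1 (vertical axis), each as log2 ratio minus the mean of hearts in the same dye orientation, 1 point per heart; red is KO, blue WT, filled circles Cy3 and open triangles Cy5. Per1, Per2 and Dbp decline with Arntl over 12 hearts, Per1 hardly does without KO 1 and WT 2, and Nr1d1 shows no trend.

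The mean of each arm was also taken per heart; the morning mean of KO 1, KO 4 and WT 5 rests on Arntl and Clock alone, since Npas2 had no value there. The evening mean minus the morning mean, of dye-centred values, was highest in KO 1 at 0.68 and in WT 2 at 0.48, and lowest in KO 2 at -0.62 and in WT 3 at -0.29. The other hearts lay between -0.24 and 0.17. The r of the morning with the evening mean was -0.755 over 12 hearts and -0.528 without KO 1 and WT 2. Among members of one arm, Arntl and Clock had r = 0.828 (0.483 without these 2 hearts), and Per1 and Per2 had r = 0.651 (0.426 without), whereas Per1 and Per3 had r = -0.579 and Dbp and Nr1d1 r = 0.001. Cry1 and Cry2 had r = 0.091 and -0.417 with Arntl, and 0.779 and 0.223 without the 2 hearts. The points share their reference RNA and arrays, and these r describe 12 hearts.

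**Figure D4:**
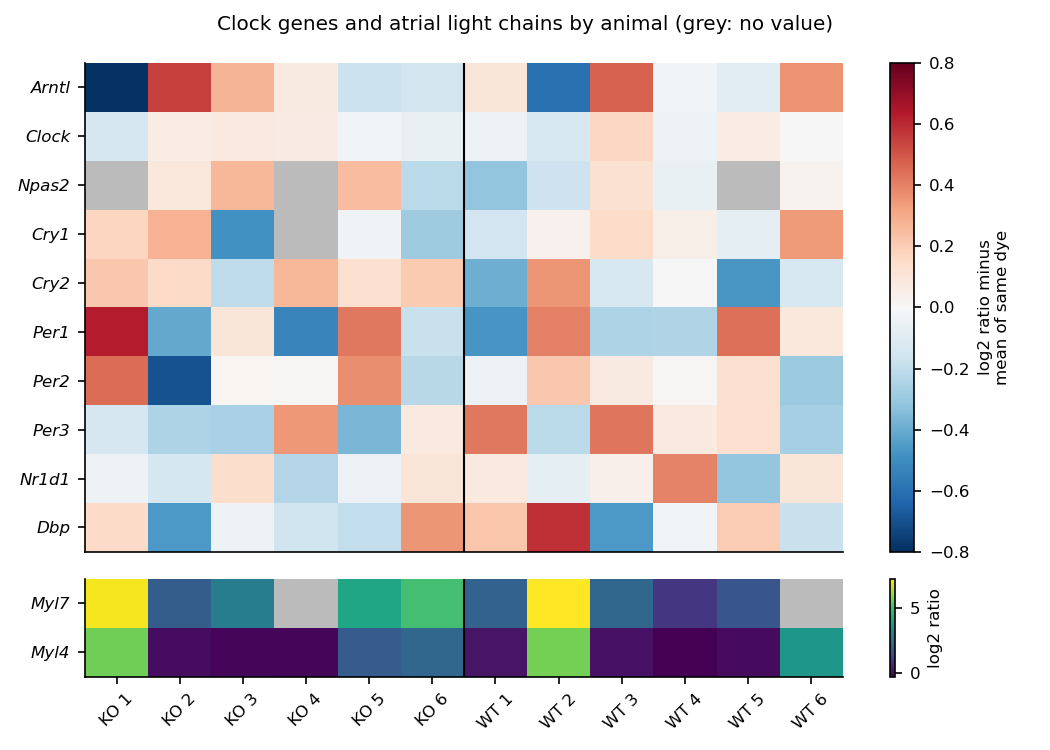
Dye-centred log2 ratio of each clock gene in each heart (upper panel, red above and blue below the mean of the same dye orientation) and log2 ratio of the atrial light chain genes Myl7 and Myl4 (lower panel), KO hearts on the left, grey where there is no value. KO 1 and WT 2 combine the lowest Arntl with high Per1 and Per2 and the highest Myl7 and Myl4.

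Probes of one gene differed in how they followed Arntl. The 2 Per2 probes had r of -0.367 over 12 and -0.865 over 11 hearts with Arntl, and r = 0.390 with each other. The 4 Clock probes ranged from -0.030 to 0.739. The 3 Nr1d1 probes lay between -0.085 and 0.306.

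The wider clock network was described from lists of other clock regulators and of clock outputs. Of the 15 regulators 13 were measured; 0 passed the adjusted test and 1 had an unadjusted p under 0.05, with 3 differences above and 10 below 0 and a median of -0.074; before adjustment 5.33% of all features passed, and 1 of 13 is near that share. That 1 was Csnk1e, the casein kinase that phosphorylates PER proteins, which averaged -1.01 ± 0.23 in KO and -0.66 ± 0.31 in WT hearts (SD, n = 6 each), which makes -0.35 ± 0.11 (SE) between them and a limma adjusted p of 0.834. Bhlhe41 (DEC2, a repressor at E-boxes) differed by 0.34 ± 0.17, Btrc (a ubiquitin ligase subunit that targets PER proteins) by -0.23 ± 0.15 and Rorb (a ROR receptor) by -0.16 ± 0.11, with limma adjusted p-values of 0.935 to 0.942. Of the 11 outputs all 11 were measured and 0 passed at either threshold, with 7 above and 4 below 0 and a median of 0.020. Over all features 49.7% of differences were above and 50.3% below 0, with a median of -0.0009. Nampt, the enzyme that recycles NAD, differed by -0.27 ± 0.14, Klf15, a transcription factor of nutrient metabolism, by 0.20 ± 0.15, Wee1, a kinase that restrains cell division, by 0.16 ± 0.14 and Pdk4, which restrains glucose oxidation, by 0.30 ± 0.45.

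Over hearts, r with Arntl was below 0 for 8 of the 13 regulators, with a median of -0.136 and a range of -0.842 to 0.729, and for 10 of the 11 outputs, with a median of -0.701 and a range of -0.849 to 0.411. Without KO 1 and WT 2 these medians were -0.189 and -0.326. A negative r with Arntl was not limited to these lists. Of 7 glucocorticoid response genes other than Per1, described below, 6 had r below 0, with a median of -0.529 (-0.342 without the 2 hearts). The share of all genes with r below 0 was not counted. Among genes measured on all 12 arrays, r = -0.131 with Arntl stood at percentile 39.1 and r = 0.113 at 64.8, so that share lay between. The 8 of 13 regulators fall inside that range, and 10 of 11 outputs and 6 of 7 glucocorticoid genes above it. By gene, r with Arntl was -0.842 for Nr1d2, the REV-ERB beta gene (11 hearts, -0.686 without KO 1 and WT 2), -0.849 for Tef, a D-box factor related to Dbp (12 hearts, -0.332 without), and -0.735 for Hlf, the third such factor (-0.154 without). Nfil3, which represses at D-boxes, ran with Arntl at r = 0.729 (0.539 without). Among 7426 named genes measured on all 12 arrays, r with Arntl stood at percentile 99.9 for Clock, 99.5 for Nfil3, 0.202 for Tef, 1.17 for Dbp, 1.52 for Per2 and 2.63 for Per1, but at 14.0 for Cry2, 64.8 for Nr1d1 and 72.0 for Per3. Timeless, Rorb, Csnk1e and Rora, among the regulators, had r of 0.386, 0.305, 0.230 and -0.088, and Nampt, the output that ran with Arntl, had r = 0.411. Klf15, at -0.645, was -0.642 without the 2 hearts, while Ciart, a repressor of BMAL1 and CLOCK, had r = -0.677 over 12 hearts and 0.090 over 10. All 4 atrial genes also had r below 0 with Arntl, at -0.863 for Myl7 (10 hearts, -0.334 without) and -0.716 for Myl4 (12 hearts, 0.326 without). Sln had r = -0.558 (0.319 without) and Nppa r = -0.131 (0.295 without).

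**Figure D5:**
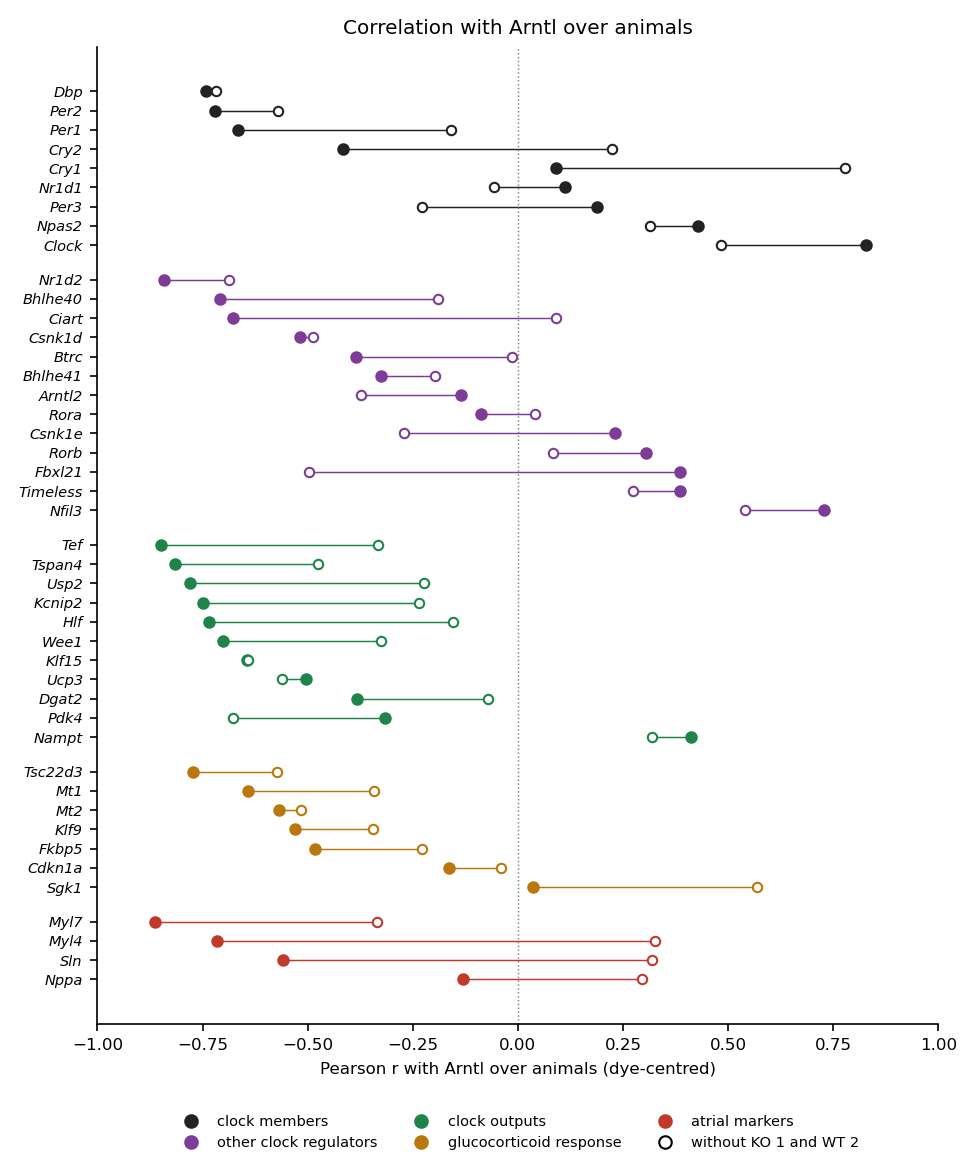
Pearson r with Arntl over hearts, of dye-centred values, for clock genes, other clock regulators, clock outputs, glucocorticoid response genes and atrial markers; filled points use all hearts with both values and open points leave out KO 1 and WT 2. Dbp, Nr1d2, Klf15, Per2, Ucp3 and the glucocorticoid response genes Tsc22d3 and Mt2 keep negative values below -0.5 without the 2 hearts. Tef, Hlf, Usp2, Per1 and the atrial genes move toward or past 0.

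Per1 can be induced by glucocorticoids apart from the clock, so a list of such genes was read beside it. Of 9 genes 8 were measured, Per1 included; 0 passed at either threshold between KO and WT, with 6 above and 2 below 0 and a median of 0.036. The 4 of smallest p were Tsc22d3 at 0.25 ± 0.20, Cdkn1a at 0.15 ± 0.17, Mt2 at -0.18 ± 0.33 and Klf9 at 0.06 ± 0.12. Over hearts Per1 ran with Klf9, a transcription factor induced by glucocorticoids, at r = 0.865 (0.864 without KO 1 and WT 2), with Tsc22d3 (GILZ, an anti-inflammatory mediator) at r = 0.811 (0.660 without) and with the metallothionein gene Mt1 at r = 0.785 (0.654 without). Fkbp5, a glucocorticoid receptor co-chaperone, had r = 0.537 (0.358 without) and Sgk1, a kinase, r = 0.383 over 10 hearts. Klf9 and Tsc22d3 stood at percentiles 99.9 and 99.7 of the genes measured on all arrays. The outputs Usp2 and Hlf followed Per1 about as closely, at r = 0.843 over 11 hearts (0.645 without) and r = 0.833 (0.738 without). Tef had r = 0.708 (0.352 without). High r with Per1 was thus found in both lists, and the part of glucocorticoids in Per1 was not tested. Over whole lists, all 7 other glucocorticoid genes had r above 0 with Per1, with a median of 0.577 (0.477 without). Of the 11 outputs 10 did, with a median of 0.452 (0.299 without). The share of all genes with r above 0 was not counted. Among genes measured on all arrays, r = -0.203 with Per1 stood at percentile 28.9 and r = 0.061 at 56.1. Nampt had r = -0.215, and Kcnip2 moved from 0.407 to -0.401 without the 2 hearts. Tsc22d3 also had r = -0.773 with Arntl (-0.572 without the 2 hearts).

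The named genes most like Arntl over the 12 hearts, among the 7426, were Spon2 (r = 0.898), Pkib (0.863), Ostc (0.860), Prox1 (0.858) and Taf7l (0.841). Those most opposed were Hspa1a, the inducible heat shock protein 70 gene (r = -0.906), Pdgfd (-0.905), Cytl1 (-0.896), Cracd (-0.895) and Kcnj3, a potassium channel gene known for its atrial expression (-0.893). Without KO 1 and WT 2, Hspa1a kept r = -0.912, Spon2 0.814 and Taf7l 0.840, while Kcnj3 was at -0.276, Prox1 at 0.409, Cracd at -0.480, Cytl1 at -0.533, Pkib at 0.577, Ostc at 0.688 and Pdgfd at -0.736. For Dbp the most alike were Ankrd52 (r = 0.944), Kbtbd11 (0.920), Wasf2 (0.874), Ptpn1 (0.853) and Timp3 (0.849), and the most opposed were Smox (-0.905), Pde4a (-0.872), Hs6st3 (-0.832), Psmg2 (-0.824) and Cnep1r1 (-0.809). Without KO 1 and WT 2 the Dbp values lay between 0.726 and 0.919 for the 5 alike and between -0.975 and -0.787 for the 5 opposed. These are the extremes of a ranking of 7426 genes over 12 hearts and are given as a description.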

How the data were processed

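Heart RNA of 6 KO and 6 WT mice was measured on 1 array per animal. The deposited values, for 41174 probes, were signed log ratios, read here as log2; per the labels' protocols, RNA was amplified, labelled with Cy3 or Cy5 and dye-swapped on distinct animals. The sources used here do not give the authors' background correction, normalization or reason for empty cells. Array medians lay between -0.029 and 0.068, so nothing further was normalized. If the base is another one, all differences scale by 1 factor and the tests stay as they are.

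The platform annotation gave 1 symbol for 31700 probes, several for 47 and none for 9427, and 31564 probes matched RefSeq through their Entrez ID. Probes with at least 2 values in each combination of genotype and dye were kept (36826; 4348 left out). Probes of a gene were joined by an additive model of probe and array, giving 25821 features. The main test was limma 3.58.1 in R 4.3.3 (lmFit, eBayes, two-sided, Benjamini-Hochberg) with genotype and dye as terms, checked on simulated data. Correlations used Python 3.11.15 with values centred within dye, 100000 permutations within dye or all orders where fewer. Replicate numbers do not pair the animals: the r of same-numbered deviations lay between -0.338 and -0.0692.

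The members and lists were chosen with earlier results of these data known. The rule for named genes was all 10 members, the targeted gene, the 4 measured genes of smallest p in each list, and the 5 named genes of highest and lowest r with Arntl and with Dbp. Genes named for their r were taken from these lists after their values were seen. Animals of a group are separate mice per the labels. Alternatives changed the dye term, scaling, weights, probe rule, filters, variance model and arrays used.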

Additional observations from a re-analysis of the deposited data

Results flagged for a closer look

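Among 20 groups of values, each of 10 genes in KO and in WT hearts, 1 held an animal far from the others by Dixon's test at the 95% level; chance alone marks about 1 group in 20. Cry2 was lowest in KO 3, at a log2 ratio of 0.201, against 0.54 to 0.68 in the other 5 KO hearts and -0.06 to 0.76 in WT hearts.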

How the results depend on the processing

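No clock gene passed the adjusted test under any of the 27 alternatives. With the replicate block in place of the dye term, 1 feature and 0 clock genes were called, as without it; the block changed no other call. Over all features 3 were called after quantile normalization and 4 among features measured on all 12 arrays. Without 3 arrays that carried markers of other tissues (KO 1, KO 6 and WT 2), 2 were called. WT 6 stayed in, although its atrial marker mean of 4.05 was above the 3.38 of KO 6, and so did KO 5 at 3.20. In Cy3 hearts alone 2 were called, in Cy5 hearts alone 0, and with 1 animal left out 1 to 3.

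All KO minus WT differences that changed sign lay inside the 95% interval of the gene. Arntl was 0.00825 without the 2 emptiest arrays (KO 4 and WT 3), 0.017 in Cy3 hearts and -0.215 to 0.0935 with 1 animal left out. Clock was 0.000724 with arrays centred on their medians, 0.015 with array weights, 0.0557 with 1 probe, 0.0847 among features on all 12 arrays, 0.017 without the 2 emptiest arrays, 0.0107 without the 3 arrays named, 0.00117 in Cy3 hearts and -0.0349 to 0.0292 with 1 animal left out. Per1 was -0.053 after quantile normalization, -0.189 in Cy5 hearts, -0.0328 without KO 1 and WT 2 and -0.128 to 0.129 with 1 animal left out. Per2 was 0.00625 with the plain mean of probes, 0.0685 with 1 probe and among features on all 12 arrays, 0.107 in Cy5 hearts and -0.128 to 0.127 with 1 animal left out. Per3 was 0.0377 in Cy5 hearts, and Nr1d1 ran from -0.154 to 0.00309 with 1 animal left out. Npas2, Cry1, Cry2 and Dbp kept their sign in all alternatives that gave a value, but not their size: Dbp was -0.000667 without WT 2, -0.00333 in Cy5 hearts and -0.233 without WT 3, Cry1 -0.0236 without KO 3 and -0.021 in Cy3 hearts, Cry2 0.0385 with 1 probe and 0.362 without WT 2, and Npas2 0.0285 in Cy5 hearts, 0.052 under the replicate block, 0.106 without KO 3 and 0.284 without KO 6.

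Of the 10 pairs 1 passed with the plain mean of probes and 0 to 1 with 1 animal left out. Arntl against Per2 passed with the plain mean (permutation adjusted p = 0.0259), without WT 3 (0.0428) and without KO 6 (0.0399). In the plain mean, the Per2 value of WT 3 rests on 1 probe, since the other had no value there. With 1 probe per gene, Arntl against Per2 had r = -0.367 (permutation p = 0.364, adjusted p = 0.492). Arntl against Dbp passed without KO 1 (permutation adjusted p = 0.0234). Over the alternatives, adjusted p-values of both pairs ran up to 0.894. The r of arm means was -0.571 after quantile normalization, -0.558 without these 3 arrays and with 1 probe per gene, and -0.528 without KO 1 and WT 2, which were also the 2 hearts farthest from the median of the morning mean. Arntl against Per3 turned to -0.134 in Cy5 hearts, -0.025 in KO hearts, -0.036 without the 2 emptiest, -0.210 without the 3 arrays named, -0.227 without KO 1 and WT 2, and -0.004 to 0.366 with 1 animal left out. Arntl against Nr1d1 turned to -0.151 in KO hearts, -0.007 without the 3 arrays and -0.057 without KO 1 and WT 2. Clock against Per1 turned to 0.065 in Cy5 hearts, 0.139 without the 3 arrays and 0.2 without KO 1 and WT 2, and Clock against Per2 to 0.189, 0.092 and 0.189 in the same settings and to 0.191 with 1 probe. Clock against Per3 turned to -0.104 without the 2 emptiest, and Clock against Nr1d1 to 0.331 in Cy3 hearts and 0.499 with 1 probe. Clock against Dbp kept its sign in all alternatives, from -0.846 in Cy3 hearts to -0.238 in Cy5 hearts. It was -0.463 without the 3 arrays and -0.432 with 1 probe (permutation p = 0.179). The causes were not tested. Leaving out KO 1 and WT 2, and 1 probe per gene for pairs, were chosen after seeing the data. Signal over background is unknown.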
